A study of Arabidopsis thaliana with 2 samples.

Results

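SR proteins are serine/arginine-rich splicing factors, and 7 of their genes carried splicing events in cotyledons of the Arabidopsis thaliana lefko1 mutant when set against wild type. The genes are SR30 (AT1G09140), SR34a (AT3G49430), RS31 (AT3G61860), RS41 (AT5G52040), RS2Z32 (AT3G53500), SCL30A (AT3G13570) and SCL33 (AT1G55310). Every entry with the identifier of one of these genes was taken from the authors' lists of alternative 5' site, alternative 3' site, intron retention, exon skipping and mutually exclusive exon events. This gave 19 of the 343 listed events, on 7 introns, 1 intron per gene. The lists hold events with an adjusted p under 0.05 only, so the genes were chosen by the same contrast that is described here. Their shares are therefore given as a description, with no test.

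The mutant sample is lefko1 in the protocols and lefko2 in its title, and the other sample is the Col-0 wild type, the background of both. There was 1 sample of each genotype, and both were grown on solid medium with 1% sucrose at 22°C with 16 h of light per day. The RNA is described as coming from cotyledons, while the source label names seeds. The age of the plants and the lesion of the mutant are not stated in the labels. As background, LEFKOTHEA is known as an RNA-binding protein that acts in splicing in the nucleus and the chloroplast. The tables hold no gene expression levels, so the labelled tissue was not checked against marker genes. Each event has inclusion reads, which include a stretch of sequence, and skipping reads, which cross the junction that leaves it out. Each count is given as 3 sets per genotype. The labels do not say whether these are separate plants, libraries or runs, so every SD and SE below measures only the spread between sets. Reads of the 19 events summed to 28266 to 30327 per set in lefko1 and 16146 to 18595 in wild type, and the depth of the whole libraries is unknown. The share of inclusion is the percentage of an event's reads that are inclusion reads. It was not corrected for the length of the stretch, so it is not the percentage of transcripts that keep the stretch.

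SR proteins carry an RNA recognition motif and a region rich in arginine and serine dipeptides, and they help to define splice sites by contact with U1 and U2AF proteins. Plants have several subfamilies of them, of which SR, RS, RS2Z and SCL are represented here. Many SR genes hold a long intron that is itself spliced in several ways, and the forms that keep part of it often carry an early stop codon. In Arabidopsis such transcripts are known to be degraded by nonsense-mediated decay or to be held in the nucleus. Splicing of SR30 and RS31 is known to respond to light.

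The splice sites of the 6 introns that interrupt coding sequence are shown because the listed events of these genes are defined by their positions. They are from RefSeq (TAIR10.1), and the capitals mark the first intron bases at a 5' site and the last intron bases at a 3' site.
SCL33, 5' site of the intron (chr1:20631115-20631134, plus strand): accggGTgagcatgttttgt
SCL33, alternative 3' site (chr1:20631539-20631565, plus strand): tgaagttgttgaggtttagcAGtgaat
SCL33, alternative 5' site (chr1:20631718-20631737, plus strand): agcagGCaagtgcttgcttt
SCL33, 3' site of the intron (chr1:20631863-20631889, plus strand): ttgttctacattttgaatgcAGagatc
SCL30A, 5' site of the intron (chr3:4431030-4431049, minus strand): actggGTgaggatgctctgt
SCL30A, 3' site of the intron (chr3:4430315-4430341, minus strand): ttgtttgttggatttgttgcAGagatc
RS2Z32, 5' site of the intron (chr3:19836386-19836405, minus strand): ggaagGTaaagagtcatatt
RS2Z32, alternative 3' site (chr3:19836126-19836152, minus strand): aacttgaatgatcttgttgaAGgtttc
RS2Z32, 3' site of the intron (chr3:19835908-19835934, minus strand): tttctggcaacaatttacgcAGagtac
RS41, 5' site of the intron (chr5:21131182-21131201, plus strand): agctgGTaagtcttggttct
RS41, alternative 3' site (chr5:21131540-21131566, plus strand): tcaacatttgattttggcgcAGgattt
RS41, alternative 5' site (chr5:21131883-21131902, plus strand): gcaagGTctgtaaaactact
RS41, 3' site of the intron (chr5:21132065-21132091, plus strand): tcccttttggttctctccccAGggttt
RS31, 5' site of the intron (chr3:22902039-22902058, minus strand): atctgGTaaagtgtcttcta
RS31, alternative 3' site (chr3:22901764-22901790, minus strand): ttgagtgtttatttgttcgcAGgaact
RS31, 3' site of the intron (chr3:22901251-22901277, minus strand): cttgtgctttcttttgttgcAGgatat
SR30, 5' site of the intron (chr1:2944154-2944173, minus strand): tcaagGTatgagtgttagat
SR30, alternative 3' site (chr1:2943560-2943586, minus strand): tattgcgttgtttgttttctAGatctg
SR30, 3' site of the intron (chr1:2943222-2943248, minus strand): ggggtttttggtcttgctgcAGgtccc

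The alternative 5' site of SCL33 begins with GC, and the other sites shown have GT at the start and AG at the end of the intron. Each site was scored by its match to the base composition of all annotated sites of protein-coding genes, as a percentile among them. The 5' sites of the SCL introns scored low, at percentile 5.89 in SCL30A and 16.4 in SCL33, while those of RS41 and SR30 were at 94.4 and 93.4. The 3' site of the intron was at percentile 99.5 in RS31 but at 12.2 in RS2Z32 and 15.3 in RS41. In RS2Z32 and RS41 the alternative 3' site within the intron scored higher than the 3' site of the intron, at percentiles 43.6 and 69.9. The same held for SR30, with 83.4 for the alternative 3' site and 74.2 for the 3' site of the intron. In SCL33, RS31 and SR34a the alternative 3' site scored lower than the 3' site of the intron. The order of the sites thus differed between the genes, and the scores describe the sequence only.

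All 7 introns were the longest of their gene. They measured 942 nt in SR30, 929 nt in SR34a, 900 nt in RS41, 798 nt in RS31, 765 nt in SCL33, 725 nt in SCL30A and 488 nt in RS2Z32. The other 208 listed retention introns had a median of 149 nt, and 21 of them were at least as long as that of RS2Z32. Of all annotated introns of protein-coding genes, 5.05% reach 488 nt. How often the other listed introns are the longest of their gene was not counted. GC content of the 7 introns had a median of 36.3%.

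The codon number at which the intron lies was equal or close in some of the genes, and the proteins were not aligned. In RS31, RS41 and RS2Z32 the intron interrupts codon 36, counted from the annotated start codon, after its first base in RS31 and RS41 and its second in RS2Z32, and in SCL33 and SCL30A it interrupts codons 74 and 75. The intron of SR30 lies near the end of the coding sequence, in codon 245 of 268. That of SR34a (chr3:18331713-18332641, plus strand) is the first intron of the gene and lies in the 5' untranslated region. RefSeq has a transcript that keeps the whole intron for SR30, SR34a, RS41, RS2Z32 and SCL33, and 1 transcript each, with the intron removed, for RS31 and SCL30A.

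**Figure D1:**
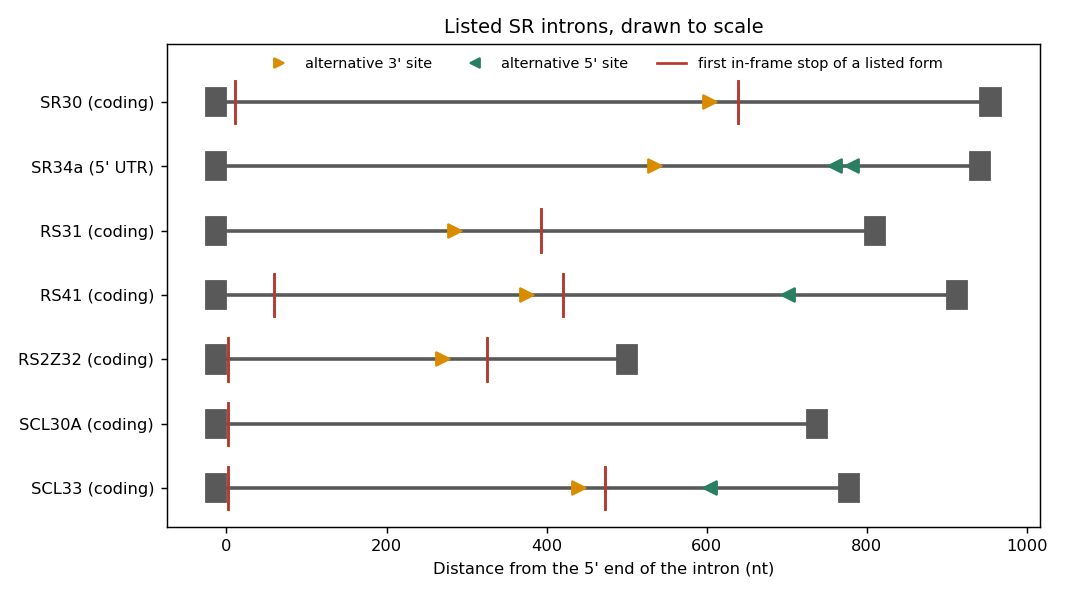
The 7 introns are drawn to scale as lines from their 5' end, in nt, with blocks for the flanking exons. Triangles mark the alternative 3' and 5' sites of the listed events and red bars the first in-frame stop codon of a listed form, which falls 2 nt into the intron in RS2Z32, SCL30A and SCL33.

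Each listed form with more of a coding intron was translated in frame from the annotated start codon. All 14 such forms, in 6 genes, met a stop codon inside the intron. Some forms of the same intron share a stop, so the 14 are not separate results. Forms of the other listed genes were not translated, so this count has no background. In SCL33, SCL30A and RS2Z32 the retained intron has its first stop at base 2, so that the stop overlaps the 5' site shown above (TGA in gtga of both SCL genes, TAA in gtaa of RS2Z32). The retained form of SCL33 then codes for 74 residues in place of 287, that of SCL30A for 75 in place of 262 and that of RS2Z32 for 36 in place of 284. Retention gave 55 codons in RS41 in place of 357. Retention in SR30 gave 248 codons in place of 268, and its alternative 3' site gave 256. Both counts include codons read from the intron. Forms that use an alternative 3' site reach a stop in the kept stretch as well, 45 nt into it in RS41, 108 nt in RS31, 56 nt in RS2Z32 and 32 nt in SCL33. In all 14 forms the stop lay 359 to 1772 nt before the last exon junction, while the stop of the 6 annotated coding forms lay in the last exon. In SR34a no coding sequence is affected, but the leader holds 1 upstream ATG with the intron removed and 29 with the whole intron kept, 11 with the alternative 3' site and 7 with the internal exon of 224 nt.

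In all 19 events the inclusion share was higher in lefko1, and the 3 mutant sets lay above the 3 wild-type sets in each. Over all 343 listed events the share was higher in lefko1 in 77.8%, and higher without overlap of the sets in 74.1%. The median difference was 17.3 points over the 19 events (range 11.1 to 27.1), against 17.7 points over all listed events. With 1 event per intron, the one with most reads, the median of the 7 introns was 15.7 points, against 17.7 points over all 302 junctions and mutually exclusive events. Classes did not differ in direction: the share was higher in 6 of 6 retention events, 6 of 6 alternative 3' site events, 3 of 3 alternative 5' site events and 4 of 4 exon skipping events. Over all listed events of these classes it was higher in 83.2%, 66%, 69.8% and 88.9%. Differences of at least 10 points were found in all 19 and in 71.7% of all listed events. Nothing is read from these counts, since the lists were chosen by this contrast. In a bulk sample, other shares of cell types and other splicing within cells cannot be told apart.

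The place of the SR genes among the listed events differed between classes when events were ranked from the highest difference, lefko1 minus wild type. In retention they ranked from 77 (SR34a) to 157 (SR30) of 214, with a median of 16.1 points against 19.1 points for the other retention events. In alternative 3' site events they ranked from 9 (SR34a) to 25 (RS31) of 50, with a median of 17.1 points against 9.61 points for the others. The medians of the others mix both directions. Their differences ranged from -61.7 to 66.7 points in retention and from -94.7 to 44.0 points in alternative 3' site events. The SR events ranked 12 to 25 of 43 in alternative 5' site events and 7 to 18 of 27 in exon skipping. Read numbers of the SR events were high, and each of the 19 events was among the 77 with most reads. All 19 had at least 20 reads in every set, as did 71.4% of all listed events. An adjusted p of at most 0.01 in the authors' deposited table is held by 16 of the 19 and by 67.9% of all listed events, and the largest of the 19 is 0.0281.

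**Figure D2:**
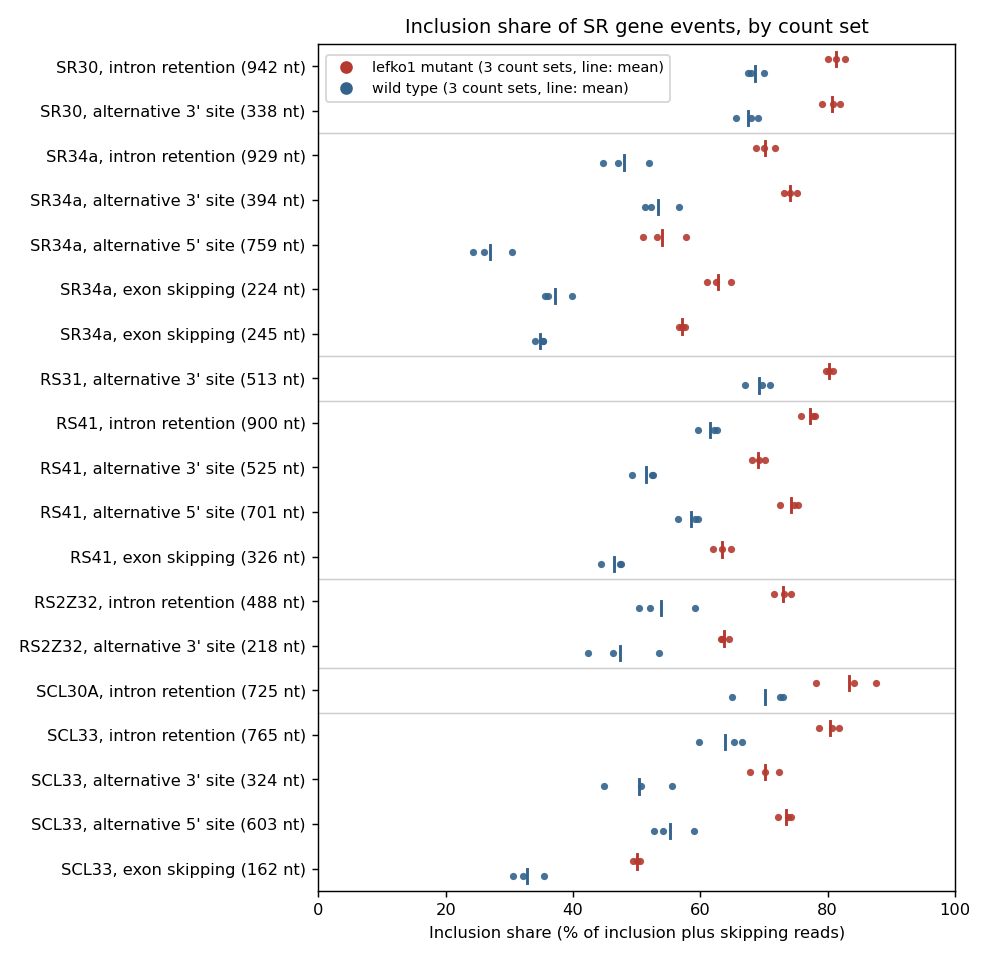
Inclusion share, in percent, of the 19 events, with lefko1 above wild type in each row, points for the 3 count sets and lines for their means. In every row the mutant points lie to the right of the wild-type points, and the smallest gap in means is that of RS31 (11.1 points).

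SR30 belongs to the subfamily related to human SRSF1. Its retention share was 81.3%, 82.8% and 80.0% in the lefko1 sets, against 68.0%, 67.5% and 70.1% in the wild-type sets. The groups did not overlap, and the difference was 12.8 points (SE 1.12, 3 sets each). The longer exon made with the alternative 3' site, 338 nt longer, was at 80.6% ± 1.47 in lefko1 and 67.5% ± 1.74 in wild type (SD, 3 sets). The inclusion totals of the events were close: retention exceeded the longer exon by a net 52, 102 and 105 reads in the lefko1 sets, against 0, 81 and 47 in the wild-type sets. A net difference of totals does not count the reads that both events share. In the authors' deposited table retention has an adjusted p of 0.000842 and the alternative 3' site one of 5.00e-05.

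SR34a, of the same subfamily, had 5 events, on the intron of its leader, and the largest difference among the SR genes. The longer exon made with the alternative 5' site had a share of 53.2%, 51.0% and 57.7% in the lefko1 sets, against 26.0%, 24.3% and 30.4% in the wild-type sets. The difference was 27.1 points (SE 2.68), with the sets well apart. Retention was at 70.1% ± 1.56 in lefko1 and 47.9% ± 3.66 in wild type (SD, 3 sets). The share of the longer exon at the alternative 3' site was 74.1% ± 1.03 in lefko1 and 53.4% ± 2.88 in wild type. An internal exon of 224 nt was included in 62.7% ± 1.94 of reads in lefko1 and in 37.1% ± 2.30 in wild type. A version of that exon extended to 245 nt by a later 5' site had 57.1% ± 0.503 in lefko1 and 34.9% ± 0.728 in wild type. Both exons are annotated, and the authors' deposited table gives the shorter an adjusted p of 1.24e-11, the smallest of the 19.

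Only in SR34a, among the 5 genes with both events, did the alternative 3' event have more inclusion reads than retention, 1318, 1355 and 1321 against 1076, 1094 and 1112 in the lefko1 sets. The wild-type sets had 646, 508 and 617 against 527, 391 and 510. The alternative 3' count therefore holds reads that the retention count does not, in both genotypes.

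RS31 was listed with 1 event, the use of an alternative 3' site that lengthens the exon by 513 nt. Its inclusion share was 79.7%, 80.3% and 80.8% in the lefko1 sets, against 71.0%, 69.7% and 67.0% in the wild-type sets. The difference of 11.1 points (SE 1.23) was the smallest of the 19, and the groups did not overlap. RS31 had 438, 472 and 392 skipping reads in lefko1, against 374, 315 and 347 in wild type. It was the gene whose skipping reads differed most between the genotypes, 1.26-fold over the summed sets. Its event is in the authors' deposited table with an adjusted p of 0.0103.

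RS41, a second gene of the RS subfamily, had 4 events. Retention was at 78.1%, 77.6% and 75.9% in the lefko1 sets, against 59.6%, 62.7% and 62.2% in the wild-type sets, a difference of 15.7 points (SE 1.17). The internal exon of 326 nt was included in 63.4% ± 1.43 of reads in lefko1 and in 46.4% ± 1.82 in wild type (SD, 3 sets). The longer exon at the alternative 3' site was at 69.1% ± 1.04 in lefko1 and 51.4% ± 1.86 in wild type. That at the alternative 5' site was at 74.2% ± 1.46 in lefko1 and 58.5% ± 1.67 in wild type. The 4 differences of RS41 ranged from 15.7 to 17.7 points, the narrowest span of the 3 genes with events in 4 classes. The internal exon has the largest adjusted p of these in the authors' deposited table, 0.00862.

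RS2Z32 encodes an SR protein with zinc knuckles. Retention was at 71.6%, 73.1% and 74.2% in the lefko1 sets, against 50.3%, 52.1% and 59.1% in the wild-type sets, a difference of 19.1 points (SE 2.79). The third wild-type set was the highest of its group but stayed below every mutant set. The longer exon at the alternative 3' site was at 63.7% ± 0.677 in lefko1 and 47.4% ± 5.64 in wild type (SD, 3 sets). Summed inclusion reads were 2.29-fold as many in lefko1 as in wild type for retention and 1.93-fold as many for the longer exon. The inclusion total of retention exceeded that of the longer exon by a net 387, 481 and 543 reads in the lefko1 sets, against 160, 110 and 134 in the wild-type sets. Such net differences do not show where in the intron the reads lie.

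SCL30A, an SC35-like protein known from Arabidopsis seed germination, had the fewest reads among the 6 genes with listed retention. Retention was at 78.2%, 84.1% and 87.7% in the lefko1 sets, against 64.9%, 73.0% and 72.5% in the wild-type sets. The difference was 13.2 points (SE 3.80), the largest SE of the 19 events. The lowest mutant set was above the highest wild-type set. The authors' deposited table lists it with an adjusted p of 0.0267.

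SCL33, an SC35-like protein known to bind this intron of its own transcript, had 4 events. Retention was at 81.8%, 80.8% and 78.7% in the lefko1 sets, against 59.8%, 65.3% and 66.6% in the wild-type sets, a difference of 16.5 points (SE 2.26). The internal exon of 162 nt had 306, 318 and 327 inclusion reads against 299, 325 and 326 skipping reads in the lefko1 sets. In the wild-type sets it had 139, 145 and 116 against 315, 264 and 245. Its share was 50.0% ± 0.562 in lefko1 and 32.7% ± 2.47 in wild type (SD, 3 sets), and the mutant spread was among the smallest of the 19 events. The longer exons at the alternative 3' and 5' sites differed by 19.8 points (SE 3.37) and 18.1 points (SE 2.01). In the authors' deposited table the adjusted p ranged from 2.27e-06 for retention to 0.0281 for the internal exon.

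The events of a gene were not independent. Within each gene the skipping reads were the same in every event, set by set, since all use the same junction. In SR34a, RS41 and SCL33 the inclusion reads were tied as well. Reads of the alternative 5' event plus those of the alternative 3' event minus those of the internal exon equalled the reads of retention in 16 of 18 sets, and the largest departure was 2 reads. In the first lefko1 set of SCL33, for example, 865 plus 784 minus 306 gave the 1343 reads of retention. The counts of the 4 classes of such a gene were thus tied to each other over 1 intron. Whether single molecules kept the whole intron or a part of it cannot be told apart from these counts.

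The higher shares came with more inclusion reads at nearly equal skipping reads. Summed over sets, inclusion reads of the 19 events were 1.90-fold to 2.88-fold as many in lefko1 as in wild type (median 2.30). Skipping reads, 1 value per gene, were 1.26-fold in RS31, 1.15-fold in SCL33, 1.11-fold in RS41, 1.07-fold in SCL30A, 0.987-fold in RS2Z32, 0.950-fold in SR30 and 0.904-fold in SR34a. SCL33, for instance, had 1343, 1364 and 1206 retention reads in lefko1, against 469, 496 and 489 in wild type, and 299, 325 and 326 skipping reads, against 315, 264 and 245. In SCL33 the inclusion reads of the genotypes were far apart, while the ranges of the skipping reads overlapped. The ranges of skipping reads overlapped in 6 of the 7 genes. The exception was RS31, with 392 to 472 in lefko1 and 315 to 374 in wild type. Such overlap was not counted over all listed events, so nothing is read from it. Over all listed events with such reads in both genotypes the median was 2.03-fold for inclusion reads and 0.904-fold for skipping reads. Inclusion reads at least 1.5-fold higher with skipping reads within 1.5-fold were found in all 19 SR events and in 43.1% of the 343. The 19 events share 7 skipping values, and all had at least 20 reads in every set, as did 71.4% of the 343. The part of read depth in this contrast was not tested. These are counts as deposited. Without library totals a fold of reads is not a fold of transcript level, and total expression of these genes was not measured here.

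**Figure D3:**
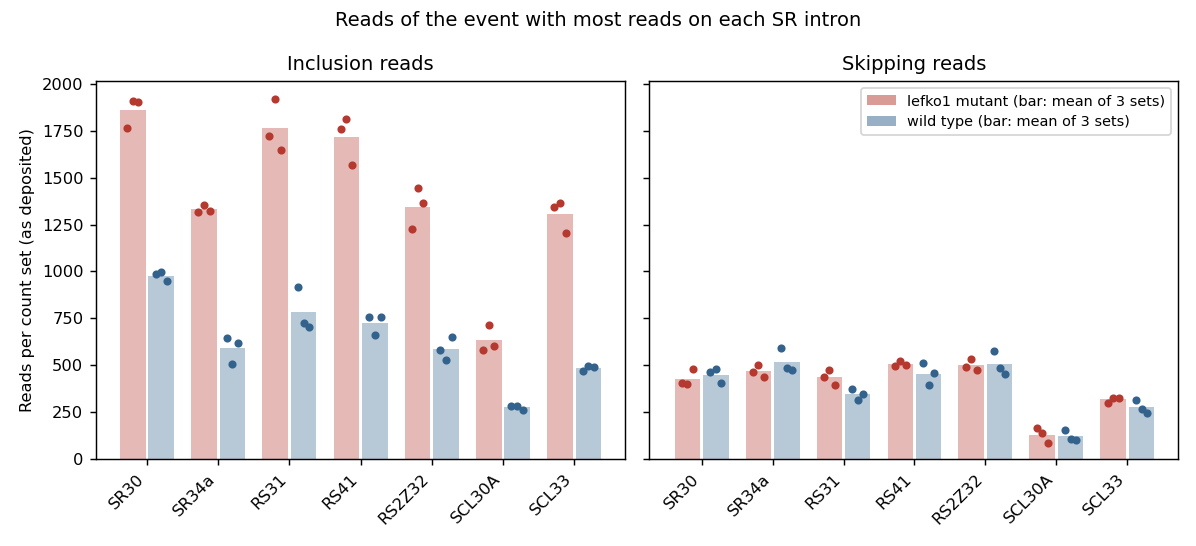
Inclusion reads (left) and skipping reads (right) per count set for the event with most reads on each intron, with lefko1 left of wild type, points for sets and bars for means. Inclusion reads of lefko1 exceed those of wild type in each of the 7 genes, while summed skipping reads differ by at most 1.26-fold.

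**Figure D4:**
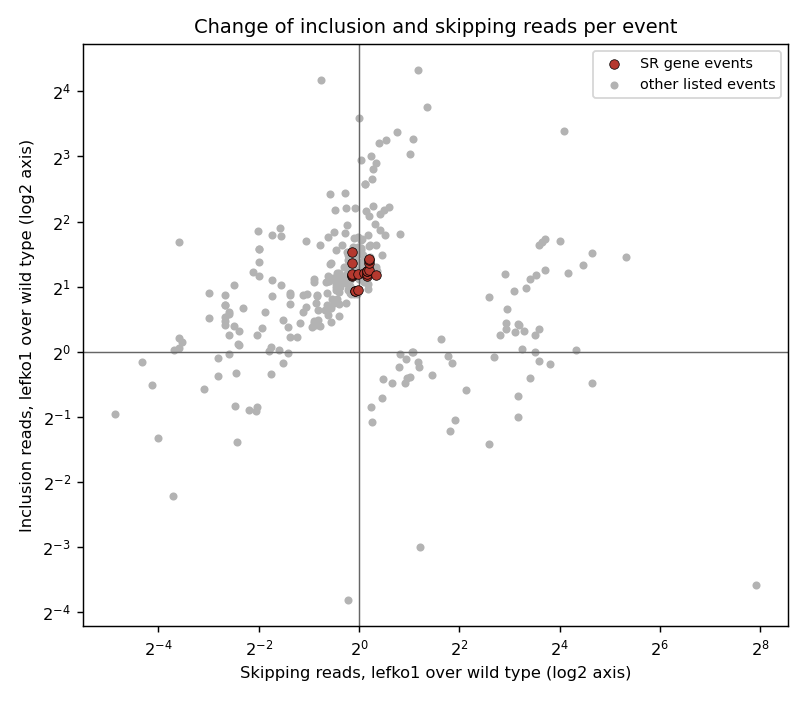
Ratio of summed reads, lefko1 over wild type, for skipping reads (x) and inclusion reads (y) on log2 axes, over the 313 events with reads of both kinds in both genotypes. The SR events lie together near a skipping ratio of 1 and an inclusion ratio of 1.90 to 2.88.

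Reads per length of the kept stretch differed within an intron. Summed over sets, the internal exon of 224 nt in SR34a had 1050 inclusion reads per 100 nt in lefko1 and 407 in wild type, and the whole intron had 353 in lefko1 and 154 in wild type. The longer exon of SR30 had 1574 reads per 100 nt in lefko1 and 828 in wild type, and the whole intron 592 in lefko1 and 311 in wild type. In RS41 the internal exon had 806 in lefko1 and 361 in wild type, and the whole intron 572 in lefko1 and 241 in wild type. In SCL33 the internal exon had 587 in lefko1 and 247 in wild type, and the whole intron 512 in lefko1 and 190.1 in wild type. Of the 12 kept stretches in the 5 genes with retention and a shorter event, 10 had more reads per 100 nt than the whole intron in both genotypes. The longer exons at the alternative 5' sites of SR34a and SCL33 had fewer in both. That of SR34a had 216 reads per 100 nt in lefko1 and 75.0 in wild type, and that of SCL33 had 436 in lefko1 and 168 in wild type. The counting rule is unknown, and the part of reads across the exon's own junctions in these values was not tested. In SR34a, RS41 and SCL33 the kept stretches overlap, so the 12 are not separate observations. Other listed genes were not compared in this way.

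The SR family of Arabidopsis has 18 genes, of which 7 were listed. Among all annotated protein-coding genes with an intron the listed share was 1.23%, and the number that the authors tested is unknown. Nothing is read from this count, since the 7 genes were chosen because they were listed. SR34, SR34b, RSZ21, RSZ22, RSZ22a, SC35, SCL28, SCL30, RS31a, RS40 and RS2Z33 were not. A list of significant events does not show whether these 11 were unchanged or were too thinly covered. A long intron was not limited to the listed genes. The longest intron of the listed genes was 488 to 942 nt (median 798), and that of the others 157 to 1100 nt (median 624). Among the 11 others, 6 had an intron of at least 400 nt, namely SCL30 (1100 nt), SCL28 (829 nt), SR34 (818 nt), RS40 (782 nt), RS31a (705 nt) and RS2Z33 (624 nt). RS40, RS31a and RS2Z33 are the closest relatives of RS41, RS31 and RS2Z32.

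**Figure D5:**
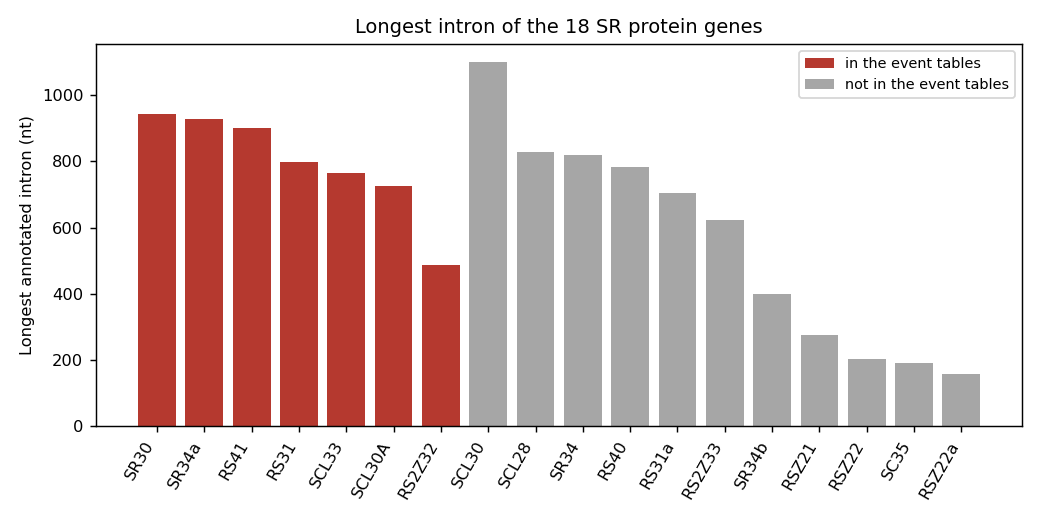
Length in nt of the longest annotated intron of each of the 18 SR protein genes, in red for the 7 with listed events and in grey for the 11 without. SCL30, at 1100 nt, has the longest and is not listed.

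A further list held genes of SR-like proteins, SR protein kinases, U1 and U2AF proteins and nonsense-mediated decay, and 4 of its 16 genes were listed. All 4 were among the 11 kinase, U1 and U2AF genes. Of all annotated protein-coding genes with an intron 1.23% were listed, and how many of them the authors tested is unknown. The 4 genes were AFC1 (AT3G53570) and AFC2 (AT4G24740), kinases of the family that phosphorylates SR proteins, U1-70K, and the U2AF large subunit gene AT1G60900. AFC1, with retention of 209 nt, had a share of 80.3%, 80.0% and 83.2% in the lefko1 sets, against 70.6%, 56.8% and 62.9% in the wild-type sets, a difference of 17.7 points (SE 4.14). AFC2 included an exon of 115 nt in 92.4% ± 1.14 of reads in lefko1 and in 83.0% ± 2.13 in wild type (SD, 3 sets). AFC1 and AFC2 are in the authors' deposited table with adjusted p values of 0.00447 and 0.0376. U1-70K resembled the SR genes, with a listed intron of 909 nt, 2.45-fold as many retention reads in lefko1 and 1.04-fold as many skipping reads. The retention share of U1-70K was 83.6% in lefko1 and 68.5% in wild type, and its alternative 5' event differed by 14.8 points. The longer exon at an alternative 5' site of AT1G60900 was at 78.4% ± 2.75 in lefko1 and 48.7% ± 4.87 in wild type. This difference of 29.7 points (SE 3.23) was larger than that of any SR event. In AFC1, AFC2 and AT1G60900 the skipping reads were fewer in lefko1, at 0.675-fold, 0.762-fold and 0.667-fold. The SR-like genes SR45 and SR45a, the kinase genes AFC3 and SRPK4, the other U1 and U2AF genes examined and the decay genes UPF1, UPF2 and UPF3 had no listed event.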

How the data were processed

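RNA was sequenced from 1 sample per genotype. The submitters' processing notes name HISAT2 2.0.4 and TAIR10. The sources used here do not name the program that called the events. The 5 deposited tables give, per the file headers, counts of inclusion and skipping reads and the authors' p-value and FDR, which is called adjusted p here. Each count cell holds 3 counts.

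Tables were read with Python 3.11.15, pandas 2.3.3, NumPy 2.4.6 and SciPy 1.17.1. Starts in the tables are counted from 0: of 1038 exon entries, 844 matched an annotated exon of their gene after adding 1 and 1 matched as given. Sequence accessions in the tables equal those of the RefSeq TAIR10.1 genome, used for positions, frames and sequences. Shares were averaged over sets, with no test, because the genes were chosen by the same contrast. The site score sums log2 odds over 3 exon and 6 intron bases at 5' sites and 15 intron bases and 1 exon base at 3' sites. Members and lists were chosen with earlier results of these data known. All events of the 7 genes and the listed members of the family and partner lists are named. One planned member of the partner list is not reported here. Each event rests on 3125 to 11135 reads in all. The share calculation was tested on simulated counts and the junction positions on toy examples. The frame calculation was not tested in this way.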

Additional observations from a re-analysis of the deposited data

How the results depend on the processing

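The median differences of the 19 events (17.3 points) and of the 7 introns (15.7) kept their direction under each alternative run. Each of the 19 events that a run kept was higher in lefko1. Leaving out each count set in turn gave 16.2 to 18.3 points, 14.5 to 16.4 points and 19 events each time. Shares over summed reads gave 17.3 and 15.8 points, and dividing inclusion reads by 2 gave 18.5 points for both. For both medians 18.5 points lies above the range from leaving out sets, so the size depends on how inclusion reads are weighted. An adjusted p of at most 0.01 kept 16 events, and a change of at least 10 points or at least 20 reads in every set kept 19. Of 171 recomputed single-event values none reversed and 7 moved by more than the spread between sets, all with inclusion reads divided by 2. No paired analysis was possible because there is 1 sample per genotype and the labels do not say that the count sets are paired. Depth was lowest in SCL30A retention and the SCL33 internal exon, whose sets hold 360 and 361 reads at the fewest.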
